A study of Homo sapiens with 16 samples.

Results

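The genes that supply the cell with cystine and turn it into glutathione were examined in CUT&RUN peak lists of a human melanoma cell line. They are SLC7A11 and SLC3A2, the light and heavy chains of the cystine-glutamate antiporter; GCLC and GCLM, the catalytic and modifier subunits of glutamate-cysteine ligase; GSS, glutathione synthetase; GSR, glutathione reductase; and GPX4 and GPX2, peroxidases that use glutathione. These 8 of 20037 protein-coding genes were chosen by name, and all 8 were found in RefSeq's gene table (assembly GRCh38.p14). A peak was assigned to a gene when it overlapped the gene body with 10 kb on either side by at least 1 bp.

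WM164 cells, an established melanoma line, overexpressed either GFP, a fluorescent protein that serves as the control, or MAFG. About 250000 cells were used per sample, and fragments released by an antibody-directed nuclease were sequenced. Each line was profiled with anti-MAFG (3 libraries), anti-MITF (3 libraries), anti-histone H3K4me3 (1 library) and anti-rabbit IgG (1 sample). The 14 lists of the first 3 antibodies were analysed, and the 2 IgG samples were not analysed here. The labels give neither how the transgenes were delivered nor whether a line is 1 clone or the replicates are separate cultures, so p-values measure only the spread between these libraries, which may be technical.

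MAFG is a small MAF protein. Small MAF proteins lack an activation domain and bind DNA as dimers, among them dimers with NRF2, the stress regulator that switches on antioxidant genes through antioxidant response elements, and dimers with the repressor BACH1. Genes of cystine import and glutathione synthesis are textbook targets of NRF2. MITF is the lineage regulator of pigment cells, and H3K4me3 is a histone mark of active promoters. Glutathione protects cells from peroxides, and GPX4 in particular reduces lipid peroxides and so restrains ferroptosis.

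Peak numbers differed between the lines: the 12 lists of anti-MAFG and anti-MITF ran from 14879 to 26221 peaks for GFP cells but from 1836 to 2818 for MAFG cells. Fragment counts were recovered from the authors' fold enrichment and p-values, and depth was 1.2 to 2.42 fragments per kb for GFP-cell and 1.23 to 1.73 for MAFG-cell libraries. Fold enrichment is the authors' value for a peak within its own list, and its size is not compared between lists. Here the summit signal is the number of fragments at a peak's summit divided by that depth. The weakest called summit of a library had a signal of 2.89 to 4.18 for GFP cells and of 5.31 to 6.95 for MAFG cells, so a site had to be stronger to be listed in MAFG cells. A missing peak in MAFG cells is therefore not by itself evidence of missing binding. The limits given below are the lowest signal that a library called at a background within 20% of that recovered at the region. They are approximate, because background changed over short distances. In MAFG cells the H3K4me3 summit and an anti-MAFG summit at GCLM, less than 1 kb apart, gave 1.28 and 0.339 fragments per unit of depth. At SLC7A11 in MAFG cells the H3K4me3 summit gave less: 0.791, beside 2.56 to 2.57 at anti-MAFG summits 1053 to 1177 bp away. A limit set from an H3K4me3 summit may thus be too high or too low. H3K4me3 peaks lay within 1 kb of a gene end at 6 of 8 melanocytic markers in both lines, with DCT and TYRP1 unmarked, and at 0 of 7 markers of other cell types.

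Anti-MAFG peaks were present at 6 of the 8 genes in GFP cells (SLC7A11, SLC3A2, GCLC, GCLM, GSR and GPX2) and at 3 in MAFG cells (SLC7A11, GCLC and GCLM), counting genes with a peak in at least 2 of 3 libraries. By the same count, 39.7% of all protein-coding genes had an anti-MAFG peak in GFP cells and 5.31% in MAFG cells. At GCLM the MAFG-cell libraries shared no site. Anti-MITF peaks were present at 6 genes in GFP cells (SLC7A11, SLC3A2, GCLC, GSS, GSR and GPX4), beside 49.1% of all genes. In MAFG cells they were present at SLC3A2 alone, beside 8.46% of all genes. An H3K4me3 peak lay in the window of 7 genes in each line, all but GPX2, beside 65.1% of all genes in GFP cells and 60.8% in MAFG cells.

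Promoter-marked genes had more peaks in general. Among genes with an H3K4me3 peak in the window, 52% had an anti-MAFG and 68.2% an anti-MITF peak in GFP cells, and 6.94% and 12.6% did in MAFG cells. Of the 7 marked members, 5 and 6 had such peaks for GFP cells and 3 and 1 for MAFG cells. In GFP cells a peak in the window was thus common among marked genes in general. With the 1836 best peaks of every library and again at least 2 of 3 libraries, anti-MAFG peaks were present at 0 of the 8 genes in GFP cells (5.17% of all genes) and at SLC7A11, GCLC and GCLM in MAFG cells (4.76%). Under that setting anti-MITF peaks were present at SLC3A2 and GSR in GFP cells (7.06%) and at SLC3A2 in MAFG cells (6.84%). Without GFP-cell anti-MAFG replicate 2, 3 genes had a peak in both other GFP-cell libraries, as 28.5% of all genes had. Requiring 3 of 3 libraries, anti-MAFG marked SLC7A11, SLC3A2 and GCLC in GFP cells (26.5% of all genes) and SLC7A11 and GCLC in MAFG cells (3.41%). Anti-MITF marked the same 6 genes in GFP cells (37.9%) and SLC3A2 in MAFG cells (5.04%). SLC7A11 and GCLC had anti-MAFG peaks in all 6 libraries, as 2.85% of all genes had. No member had a peak in 3 of 3 MAFG-cell and 0 of 3 GFP-cell libraries, a pattern of 0.105% of all genes with anti-MAFG and 0.00499% with anti-MITF. The reverse pattern, 3 of 3 GFP-cell and 0 of 3 MAFG-cell libraries, was found with anti-MITF at SLC7A11, GCLC, GSS and GPX4, beside 24.6% of all genes. No test was made of these counts, because the genes are not replicates.

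**Figure D1:**
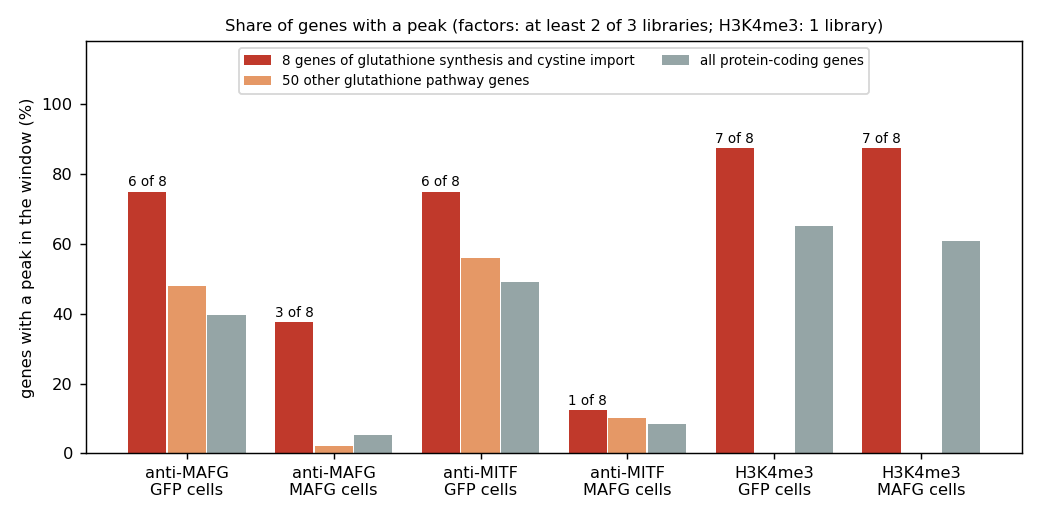
Percentage of genes (vertical axis) with a peak in the gene body or 10 kb on either side, for each antibody and cell line (horizontal axis), in the 8 genes, in 50 other glutathione pathway genes (anti-MAFG and anti-MITF only) and in all protein-coding genes. With anti-MAFG in MAFG cells the 8 genes stand at 3 of 8, beside 5.31% of all genes. Of these 3, GCLM has no site shared between MAFG-cell libraries.

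The genes differed in how many of the 12 factor libraries listed them. SLC7A11, SLC3A2 and GCLC had a peak in 9 of the 12, GSR in 6, GCLM in 5, GSS in 4, GPX4 in 3 and GPX2 in 2. The merged peaks formed 23 regions, of which 7 were called in 1 library only. Of these regions 16 overlapped an H3K4me3 peak in GFP cells, and 16 did in MAFG cells. Distances below are in bp from the gene end that lay under an H3K4me3 peak in GFP cells (for GPX2, from the start site in the RefSeq promoter table), positive into the gene and negative outside it.

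**Figure D2:**
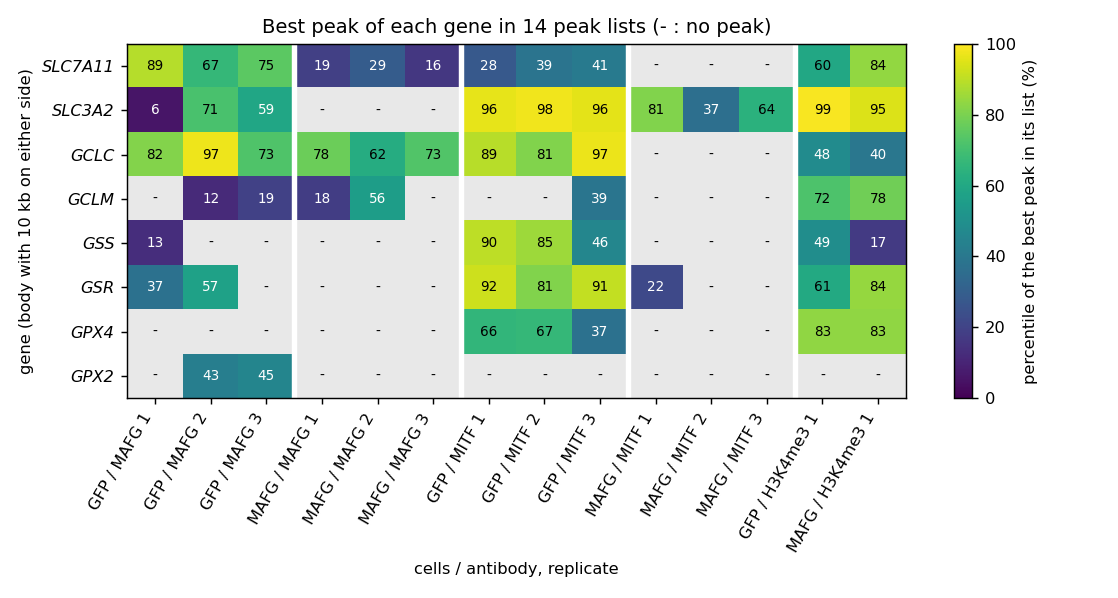
Each cell gives the percentile of a gene's best peak, by the authors' fold enrichment, within the list of 1 library (columns, cells and antibody with replicate number; rows, genes). A dash marks a gene with no peak; SLC7A11 and GCLC have values in all 6 anti-MAFG lists, SLC3A2 in all 6 anti-MITF lists.

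SLC7A11, the transporter subunit that exchanges cystine for glutamate, carried an anti-MAFG peak at its promoter in all 6 libraries. The gene lies on chromosome 4 from 138164097 to 138242349, and the merged region, from 138241375 to 138244184, spans its marked end. The authors' fold enrichment was 11, 7.10 and 7.25 in GFP-cell replicates 1 to 3, at ranks 2961 of 26221, 7818 of 23409 and 3770 of 14879. In MAFG cells it was 5.49, 5.85 and 5.49, at ranks 1490 of 1836, 1308 of 1849 and 2356 of 2818. The promoter peak was thus in the upper part of the GFP-cell lists and in the lower part of the MAFG-cell lists.

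At the SLC7A11 promoter the summit signal was 13.6, 9.74 and 9.78 for GFP cells and 19.8, 21.2 and 19.9 for MAFG cells. The means were 11.1 ± 2.24 and 20.3 ± 0.745 (SD, n = 3 each), a log2 difference of 0.89. The background recovered at these summits was 0.932 to 2.06 fragments in GFP cells and 3.14 to 4.13 in MAFG cells. At such a background the lowest called signal in the MAFG-cell libraries was 13.8 to 14.6, above all 3 GFP-cell values. A separation of the groups thus follows from choosing a region called in all 6 libraries, and nothing is read from it or from a test of it. All 3 MAFG-cell peaks, the MAFG-cell H3K4me3 peak and 1 GFP-cell peak ended at the same base, 138242336.

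Anti-MITF peaks at the SLC7A11 promoter were found in 2 of 3 GFP-cell libraries, with fold enrichments of 4.94 and 5.46, and in 0 of 3 MAFG-cell libraries. Their signals of 6.69 and 7.37 were below the lowest anti-MITF signal called at like background in MAFG cells (12.9 to 14.5). A site inside the gene at 15670 to 16284 bp, from 138225847 to 138226839, had anti-MITF peaks in 3 of 3 GFP-cell libraries (fold enrichment 5.31, 5.24 and 5.71) and an anti-MAFG peak in 1. It carried no H3K4me3 peak in either line. The promoter H3K4me3 peak had a fold enrichment of 35.4 in GFP cells (rank 5426 of 13580) and 27.6 in MAFG cells (rank 1892 of 11582), from 1 library each.

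SLC3A2, the glycoprotein chain that anchors the antiporter in the membrane, had anti-MITF peaks in all 6 libraries. The gene lies on chromosome 11 from 62856109 to 62888860 and carried separate H3K4me3 peaks at its start and inside the gene, in both lines. The start peak had a fold enrichment of 109 in GFP cells and 38.0 in MAFG cells and also reached the neighbouring non-coding gene SNHG1. The internal peak, with fold enrichments of 49.9 and 22.7, covered further start sites of SLC3A2 in the RefSeq promoter table. The factor peaks concentrated at these internal start sites.

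The letters before the most downstream SLC3A2 start are shown because anti-MITF peaks of all 3 GFP-cell libraries and 1 MAFG-cell library overlapped them. No anti-MAFG peak of either line overlapped them. The 250 bases before the start site, chr11:62881449-62881698 on the plus strand of GRCh38.p14 (RefSeq), read 5′ to 3′ as follows, with motif matches in capitals.
SLC3A2 internal promoter: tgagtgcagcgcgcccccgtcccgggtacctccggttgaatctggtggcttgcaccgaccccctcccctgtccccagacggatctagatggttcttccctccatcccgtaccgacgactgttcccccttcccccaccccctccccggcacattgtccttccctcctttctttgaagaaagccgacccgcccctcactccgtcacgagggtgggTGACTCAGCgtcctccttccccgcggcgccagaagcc
The capitals at -37 to -29 match TGACNNNGC, the core of the antioxidant response element, and at -37 to -31 they match TGAGTCA, the AP-1 core, on the other strand. The motifs overlap. TGACNNNGC occurred on either strand in 10.9% of 35116 promoter windows of this length, and TGAGTCA in 4.20%. The window of another internal start, chr11:62880646-62880895, was overlapped by anti-MAFG peaks of 2 and anti-MITF peaks of 3 GFP-cell libraries. No MAFG-cell factor peak overlapped that window. It held the small MAF sequence TGCTGA at -8 to -3, which occurred in 14% of all windows.

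Anti-MITF fold enrichment at the internal SLC3A2 region (62880094 to 62882816) was 14.3, 15 and 13.6 in GFP cells, at ranks 742 of 19828, 453 of 20117 and 790 of 20102. In MAFG cells it was 8.76, 6.15 and 7.24, at ranks 468 of 2491, 1342 of 2116 and 900 of 2495. The summit signal was 17.6, 15.4 and 15.7 for GFP cells and 21.2, 14.5 and 17.3 for MAFG cells, so the values of the groups overlapped. The summits lay at 25321, 25172 and 24419 bp in GFP cells and at 25879, 25912 and 25885 bp in MAFG cells. The values thus come from different positions in the merged region. Their means were 16.2 ± 1.18 and 17.6 ± 3.35 (SD, n = 3 each), a log2 difference of 0.11 with a standard error of 0.17 (two-sided exact permutation test, p = 0.7, with 0.1 the smallest that 3 libraries against 3 allow). The log2 difference was smaller than its standard error. Of all genes, 4.99% had an anti-MITF peak in all 6 libraries, as SLC3A2 did.

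With anti-MAFG, SLC3A2 was listed for GFP cells alone. The internal region was called in 2 of 3 GFP-cell libraries, with fold enrichments of 7.51 and 6.26, and the other GFP-cell library had a peak of 3.88 at 28416 bp. No MAFG-cell library had an anti-MAFG peak in the SLC3A2 window. The GFP-cell signals of 7.31 and 6.77 were below the lowest anti-MAFG signal called at like background in MAFG cells, 10.5 to 10.6. Anti-MAFG peaks in 3 of 3 GFP-cell and 0 of 3 MAFG-cell libraries were found at this 1 member and at 19.3% of all genes.

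GCLC encodes the catalytic subunit of the rate-limiting enzyme of glutathione synthesis. Its anti-MAFG peaks lay at different places in the 2 lines. In GFP cells the promoter region, from 53543944 to 53545587 on chromosome 6, was called in 3 of 3 anti-MAFG libraries, and a region upstream, from 53547907 to 53548819, in 1 of 3. In MAFG cells the promoter was called in 0 of 3 and the upstream region in 3 of 3. The gene body extends from 53497341 to 53545101, so the upstream region lies outside the gene.

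At the upstream GCLC region the MAFG-cell summits lay at -3233, -3261 and -3210 bp. The fold enrichment there was 9.51, 7.42 and 8.90, at ranks 412 of 1836, 702 of 1849 and 771 of 2818. GFP-cell replicate 2 had a peak at -3223 bp with a fold enrichment of 4.17, at rank 21138 of 23409. The summit signal was 16.7, 13 and 14.6 in MAFG cells and 5.48 in the 1 GFP-cell library. The lowest called signal at like background was 2.89 to 3.76 in the anti-MAFG libraries of GFP cells, below every MAFG-cell value. The GFP-cell value was in turn below the lowest called in MAFG cells, 6.51 to 7.44. No test was made, because 2 GFP-cell libraries gave no value.

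Anti-MITF peaks occupied the same upstream GCLC region in 2 of 3 GFP-cell libraries, at -3351 and -3405 bp, with fold enrichments of 7.19 and 6.92. Their signals were 6.76 and 6.73, beside a lowest called signal of 6.47 to 6.95 in MAFG cells, where 0 of 3 anti-MITF libraries called it. An H3K4me3 peak at -2602 bp, from 53547475 to 53547971, adjoined this region in MAFG cells with a fold enrichment of 7.69, and the GFP-cell H3K4me3 list had none there. With 1 H3K4me3 library per line this difference has no replicate check.

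At the GCLC promoter, anti-MAFG fold enrichment in GFP cells was 9.50, 13.1 and 7.04, at ranks 4817 of 26221, 631 of 23409 and 4079 of 14879. Anti-MITF fold enrichment was 10.8, 8.52 and 14.5, at ranks 2168 of 19828, 3842 of 20117 and 596 of 20102. The anti-MAFG signals were 6.61, 11.6 and 7.52 and the anti-MITF signals 11.7, 7.37 and 14.9. The MAFG-cell libraries called nothing below 9.95 to 10.6 (anti-MAFG) and 9.84 to 10.8 (anti-MITF) at the background of this promoter. That background was read at the MAFG-cell H3K4me3 summit, so these limits may be too high or too low. The anti-MAFG signal of 1 GFP-cell library and the anti-MITF signals of 2 were above these approximate limits, and the others were below them. H3K4me3 fold enrichment at the promoter was 27.1 for GFP cells and 12.7 for MAFG cells.

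The letters before the GCLC start are shown as the promoter with the best-ranked anti-MAFG peak among the members in GFP cells. They cover chr6:53545102-53545351 on the minus strand, from RefSeq (GRCh38.p14). The peak of 1 of 3 GFP-cell anti-MAFG libraries reached into them, and all 3 summits lay outside, at 169 to 716 bp inside the gene.
GCLC promoter: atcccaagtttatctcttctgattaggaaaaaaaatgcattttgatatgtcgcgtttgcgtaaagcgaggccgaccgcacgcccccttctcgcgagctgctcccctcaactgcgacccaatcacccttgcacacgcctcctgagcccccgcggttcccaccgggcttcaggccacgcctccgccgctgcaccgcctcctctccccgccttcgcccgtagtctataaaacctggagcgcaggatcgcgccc
None of the 6 motifs searched on both strands matched in these 250 bases, which says nothing of the bases under the summits. Besides TGACNNNGC and TGAGTCA these were the small MAF sequence TGCTGA (in 14% of all windows), the palindromic T-type MAF recognition element that contains it and the AP-1 core (in 0%), the E-box CACGTG (in 6.34%) and the M-box core CATGTG (in 9.42%). The sequence of the upstream region was not used here.

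Inside GCLC, at 32802 to 33501 bp, anti-MITF peaks were found in 3 of 3 GFP-cell libraries with fold enrichments of 7.20, 3.93 and 6.92, and no anti-MAFG peak. Past the other end of the gene, at 51787 and 51844 bp, anti-MAFG peaks were found in 2 GFP-cell libraries with fold enrichments of 5.91 and 6.16, and no anti-MITF peak. Neither site carried H3K4me3 or a MAFG-cell peak.

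**Figure D3:**
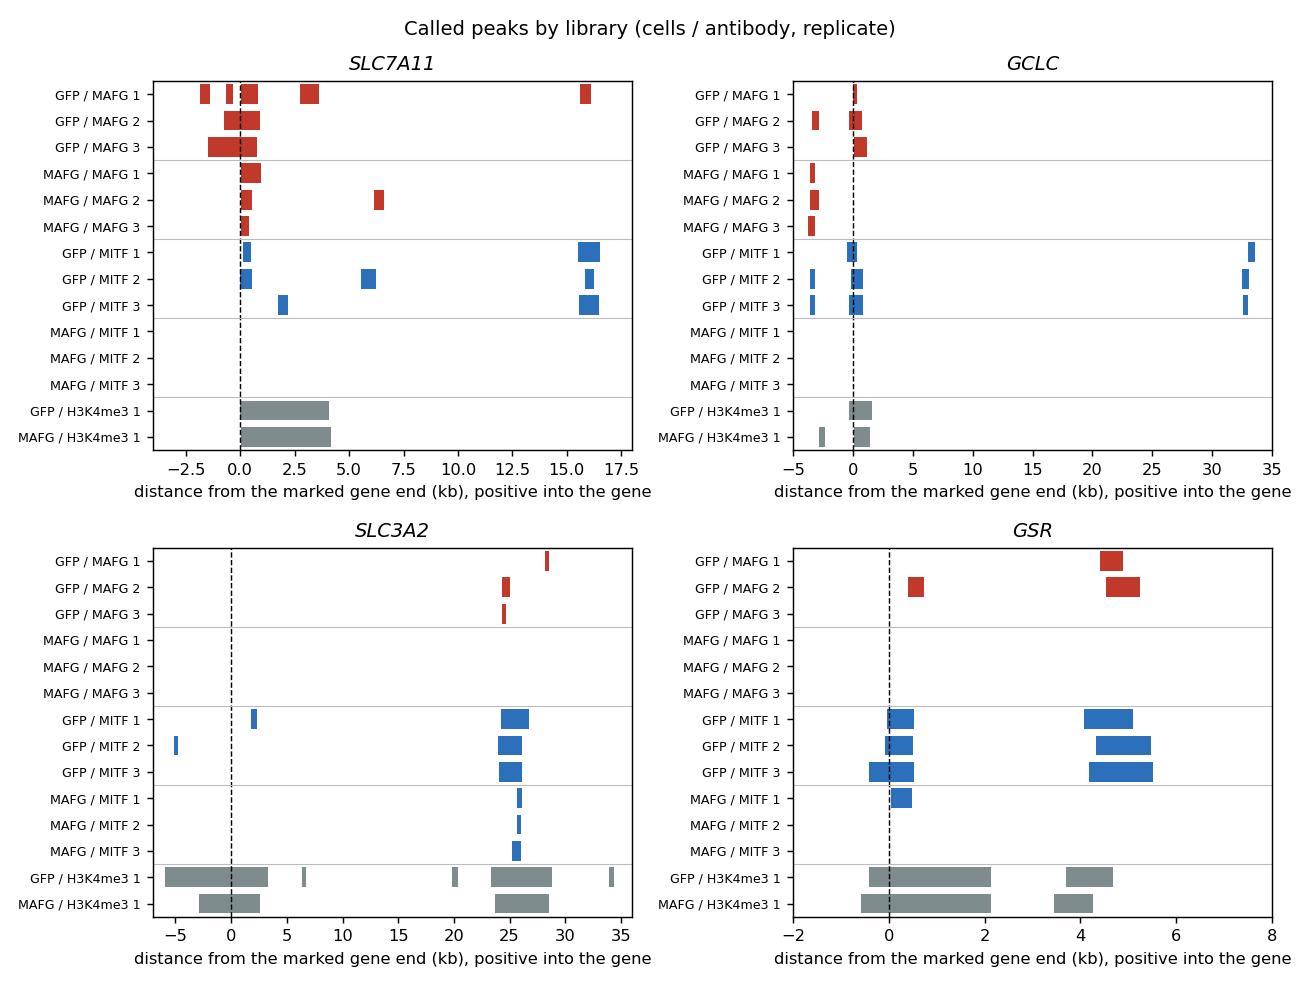
Called peaks at 4 genes, 1 row per library, drawn to scale against the distance in kb from the marked gene end (dashed line). The GCLC panel shows anti-MAFG peaks at the marked end in 3 GFP-cell libraries and upstream in 3 MAFG-cell libraries; the SLC3A2 panel shows anti-MITF peaks of both lines inside the gene.

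GCLM, the modifier subunit that raises the catalytic efficiency of GCLC, had no anti-MAFG site shared between MAFG-cell libraries. Its count in GFP cells came from the neighbouring gene. Both libraries had a peak at 30432 or 30455 bp, near an end of DNTTIP2, with fold enrichments of 4.27 and 4.66. These peaks lay under an H3K4me3 peak in both lines, with fold enrichments of 39.7 in GFP cells and 18.8 in MAFG cells. At the GCLM promoter itself (chromosome 1 from 93908671 to 93910165) anti-MAFG was called in GFP-cell replicate 2 with a fold enrichment of 3.76 and in MAFG-cell replicate 2 with 7.13, at rank 820 of 1849. The signals were 4.87 and 17.1. MAFG-cell replicate 1 had a peak elsewhere, at 4860 bp with a fold enrichment of 5.45, and replicate 3 had none. The 1 anti-MITF peak in the window lay at DNTTIP2. H3K4me3 fold enrichment at the promoter was 45.3 for GFP cells and 24.8 for MAFG cells.

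The bases before the GCLM start hold a match to the antioxidant response element core and were overlapped by the peak of 1 anti-MAFG library, MAFG-cell replicate 2. They cover chr1:93909431-93909680 on the minus strand, from RefSeq (GRCh38.p14), with the match in capitals.
GCLM promoter: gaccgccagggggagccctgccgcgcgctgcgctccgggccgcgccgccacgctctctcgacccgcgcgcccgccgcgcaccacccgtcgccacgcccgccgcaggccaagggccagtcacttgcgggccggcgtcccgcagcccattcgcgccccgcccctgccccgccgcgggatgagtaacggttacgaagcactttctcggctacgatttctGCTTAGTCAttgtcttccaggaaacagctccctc
The capitals, GCTTAGTCA at -34 to -26, match TGACNNNGC on the other strand. Over all promoter windows with this core, 0.914% of 3830 were overlapped by anti-MAFG peaks in at least 2 of 3 MAFG-cell libraries, and 0.326% of the 31286 windows without it were. In GFP cells the shares were 11.4% and 9.15%. Anti-MITF peaks overlapped windows with the core more often too, at 1.91% against 1.06% for MAFG cells and 19.1% against 14.5% for GFP cells, so the difference was not particular to anti-MAFG, and it was not tested. These are descriptions of short windows and do not mark sites.

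GSS, which adds glycine in the last step of glutathione synthesis, was listed mainly with anti-MITF in GFP cells. The promoter region, on chromosome 20 from 34954940 to 34956046, also overlaps the neighbouring gene MYH7B. Anti-MITF fold enrichment was 11.2, 9.41 and 6.04 in the 3 GFP-cell libraries, at ranks 1966 of 19828, 2957 of 20117 and 10893 of 20102, with summits at 476 to 644 bp. Anti-MAFG was called in 1 of 3 with a fold enrichment of 4.55, near the bottom of its list (rank 22780 of 26221). No MAFG-cell library listed GSS with either factor. The anti-MITF signals were 19.2, 12.9 and 9.72, and the MAFG-cell anti-MITF libraries called nothing below 15.9 to 16.8 at the background of this promoter. That background, 3.83 fragments per unit of depth, came from the H3K4me3 peak, because no factor peak was called, as at the promoters of GCLC and GPX4 and the inner site of GSR. For GFP cells at GSS, the H3K4me3 summit gave 1.27 and the anti-MITF summits, all within 0.2 kb, gave 0.821 to 0.984.

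GSR regenerates reduced glutathione with NADPH. It had anti-MITF peaks at 2 sites in 3 of 3 GFP-cell libraries, on chromosome 8 from 30727108 to 30728261 at the promoter and from 30722334 to 30723766 inside the gene. Fold enrichment was 10.7, 8.52 and 7.03 at the promoter and 12.1, 7.10 and 10.9 at the inner site, which anti-MAFG also marked in 2 GFP-cell libraries with 5.99 and 6.48. H3K4me3 peaks overlapped both sites in both lines, with fold enrichments of 35.9 and 6.98 for GFP cells and 27.9 and 6.49 for MAFG cells. The overlap at the inner site was partial. The MAFG-cell H3K4me3 peak there, from 30723586 to 30724397, reached only its edge and held none of the factor summits. In MAFG cells 1 of 3 anti-MITF libraries called the promoter, with a fold enrichment of 5.40, and none called the inner site.

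The GSR sites had a lower background in MAFG cells than the GSS promoter, 0.426 and 0.435 fragments per unit of depth. The promoter anti-MITF signals were 12.5, 7.37 and 7.47 in GFP cells, all above the lowest called in MAFG cells at like background, 6.47 to 6.95. At the inner site they were 13.4, 6.76 and 11.2, beside the same limits. MAFG-cell replicate 1 had 7.93 at the promoter, inside the GFP-cell range, and the other MAFG-cell libraries gave no value, so no test was made.

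GPX4, the peroxidase that acts on lipid peroxides, had anti-MITF peaks in 3 of 3 GFP-cell libraries and no anti-MAFG peak in any of 6. The anti-MITF peaks flanked the start on chromosome 19. Upstream, at -1843 to -1726 bp, the fold enrichment was 6.46, 7.14 and 5.16, and inside the gene, at 286 to 429 bp, it was 7.46, 5.46 and 5.61. Between these, GFP-cell replicates 1 and 2 each had a further peak, at -401 and -372 bp, with fold enrichments of 6.04 and 3.85. H3K4me3 fold enrichment at the start was 58.0 for GFP cells and 15.4 for MAFG cells. MAFG-cell anti-MITF libraries called nothing here and nothing below 12.9 to 13.3 at like background, beside signals of 11.7, 7.37 and 8.97 at the inner GFP-cell peaks.

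GPX2, a peroxidase best known from the gut lining, was the member without H3K4me3 in either line. Its only peaks were anti-MAFG peaks of GFP-cell replicates 2 and 3 at 5124 and 5026 bp, beyond the far end of the gene on chromosome 14, with fold enrichments of 5.83 and 5.65. No library had a peak over the GPX2 promoter, whose sequence is shown because it holds the antioxidant response element core without a peak: chr14:64942746-64942995, minus strand, from RefSeq (GRCh38.p14), the match in capitals.
GPX2 promoter: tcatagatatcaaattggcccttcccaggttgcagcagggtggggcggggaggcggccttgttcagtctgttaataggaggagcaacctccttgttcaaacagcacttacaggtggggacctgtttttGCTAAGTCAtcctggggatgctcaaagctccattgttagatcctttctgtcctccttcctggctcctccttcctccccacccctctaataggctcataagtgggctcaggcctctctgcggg
The capitals, GCTAAGTCA at -122 to -114, match TGACNNNGC on the other strand. The core was present in promoter windows of GCLM, GPX2 and SLC3A2. No member window searched, with or without the core, was overlapped by anti-MAFG peaks of at least 2 MAFG-cell libraries. Nothing is therefore read from the windows about the core and anti-MAFG peaks. The RefSeq promoter table matched 5 of the 8 members. SLC7A11, GSS and GSR had no entry, so their promoters were not searched.

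**Figure D4:**
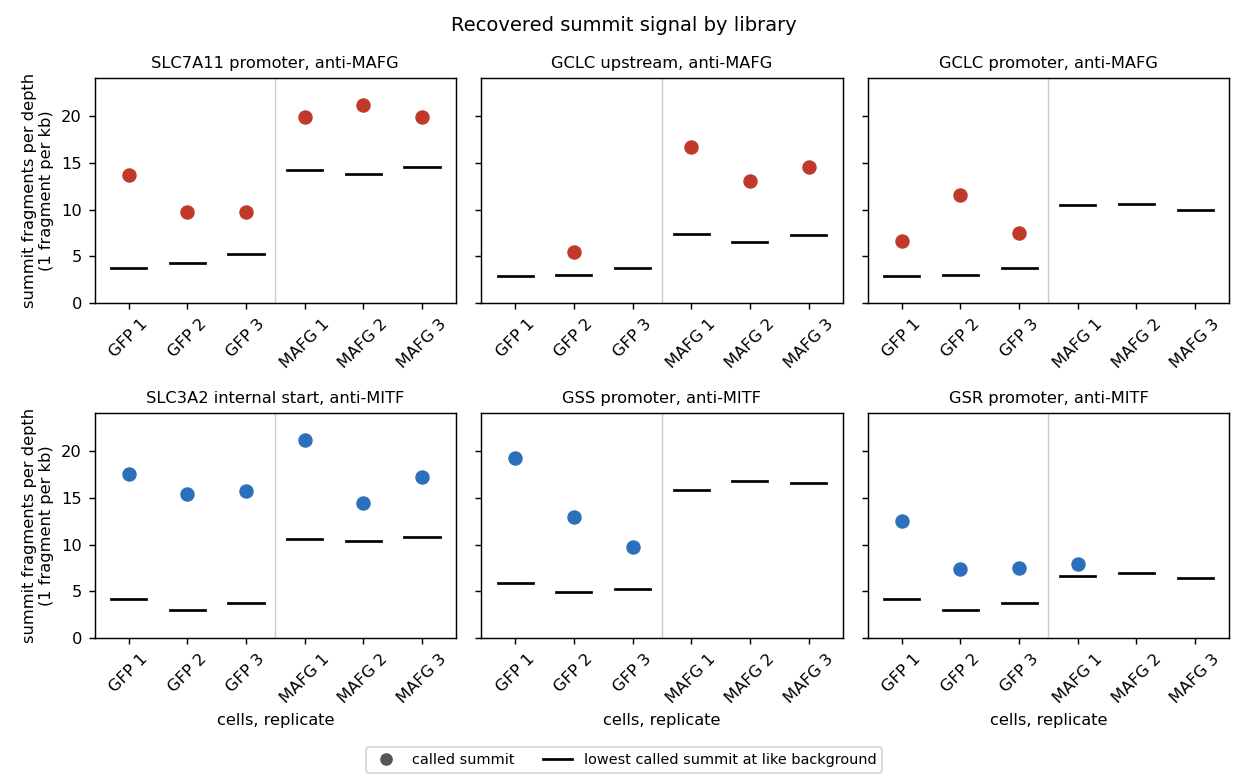
Summit signal (fragments at the summit per depth of 1 fragment per kb, vertical axis) in each library of GFP and MAFG cells (horizontal axis) at 6 regions; points are called summits, and lines give the lowest summit called in that library at like background, which is approximate. At the SLC7A11 promoter and upstream of GCLC the MAFG-cell anti-MAFG points and limits both lie above all GFP-cell points; at SLC3A2 the anti-MITF points of the lines overlap.

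Both factors overlapped at several members in GFP cells. There, 4 members (SLC7A11, SLC3A2, GCLC and GSR) had an anti-MITF region overlapping an anti-MAFG region, each called in at least 2 of 3 libraries, beside 27.5% of all genes. Without GFP-cell anti-MAFG replicate 2 this count was 2 (20.4% of all genes), and with the 1836 best peaks of every library it was 0 (1.37%). In MAFG cells 0 of 8 did, beside 0.908% of all genes. In MAFG cells SLC7A11, GCLC and GCLM had anti-MAFG peaks in at least 2 libraries and anti-MITF peaks in none, as 2.98% of all genes had. SLC3A2 had anti-MITF peaks in 3 and GSR in 1, both without anti-MAFG peaks. GFP-cell signals lay on both sides of the higher MAFG-cell limits, and whether the limits account for these absences was not tested. At the GCLC promoter the GFP-cell anti-MITF signals of 11.7 and 14.9 were above the approximate MAFG-cell limits of 9.84 to 10.8. A signal of 7.37 there was below them. At the GSR promoter the anti-MITF signals of 12.5, 7.37 and 7.47 were above limits of 6.47 to 6.95. At GSS 19.2 was above limits of 15.9 to 16.8, and 12.9 and 9.72 were below. At the SLC7A11 promoter and at GPX4 every GFP-cell anti-MITF signal was below the MAFG-cell limits. GSS, GPX4 and GPX2 had no factor peak in any MAFG-cell library, as 80.2% of all genes had.

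Other genes of glutathione use, recycling and breakdown had peaks at shares near those of all genes. Of 50 such genes, all matched in the gene table, 24 had an anti-MAFG peak in at least 2 of 3 GFP-cell libraries (48%, beside 39.7% of all genes) and 1 in MAFG cells (2%, beside 5.31%). That gene was GGCT, which breaks down gamma-glutamyl peptides, with fold enrichments of 6.22 and 6.83 in 2 MAFG-cell libraries; it was chosen for naming after its values were seen. With anti-MITF the counts were 28 in GFP cells (56%, beside 49.1%) and 5 in MAFG cells (10%, beside 8.46%). Those 5 were GLRX, MGST3, GGCT, LAP3 and HAGH, likewise named after their values were seen. The best GFP-cell anti-MAFG peaks of the list were at the glutaredoxin gene GLRX2, with fold enrichments of 10.8 to 17.0, at the organic anion exporter gene ABCC2 (8.32 to 11.2) and at CHAC2, which degrades glutathione (7.64 to 12.3). CTH, which makes cysteine from cystathionine, followed with 6.70 to 12.3, then the amino acid carrier SLC1A4 with 7.44 to 11.3 and the glutaredoxin GLRX with 6.64 to 12.9.

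The members with anti-MAFG peaks in all MAFG-cell libraries were compared with all other genes by the percentile of the best peak in each of the 12 lists. Nearest to SLC7A11 were SCG3, TGFBR2 and CIBAR1, at Euclidean distances of 36.1, 38.3 and 42.0 percentile points. SCG3 and TGFBR2 had anti-MAFG peaks in 3 of 3 MAFG-cell libraries, and CIBAR1 in 0. Nearest to GCLC were TLN2, KALRN and PALLD, at 30.2, 31.8 and 32.7 points, all with anti-MAFG peaks in all 6 libraries.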

How the data were processed

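Peak lists in narrowPeak layout, 1 per library, were used as deposited. Per the submitters' processing notes, the tools were cutadapt 1.8.1, Bowtie2 2.4.1, MACS2 2.1.1.20160309, ChIPseeker 1.32.1 and deepTools, with builds GRCh38 and hg38; roles and the control used are not given in the sources used here. The fold enrichment of each peak, a linear ratio, and its −log10 p and −log10 q are the authors' deposited values. Fold enrichment was used for description and for ranks inside 1 list.

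The 8 genes, the 50 other genes and all lists were chosen with earlier results of these data known. Named genes were the 8 members; of the other pathway genes, up to 6 with anti-MAFG peaks in 3 of 3 MAFG-cell libraries or, with fewer than 3 such genes, those with the best GFP-cell anti-MAFG peaks; and the 3 genes nearest to a member in pattern. Peaks on chromosomes 1 to 22, X and Y were used. Overlapping or touching peaks were merged into regions.

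The fragments at each summit were solved with 1 scale per library, taking the fold as (pileup + 1) / (background + 1) and p as the upper tail of a Poisson law. The tolerance was 0.001 in −log10 p, and this matched 100.0% of peaks in the 12 factor libraries, and 95.6% and 99.99% in the H3K4me3 libraries of GFP and MAFG cells. The relation is inferred and not stated by the authors. Depth was the lowest recovered background of a library divided by the width of its shortest peak. That width was 258 to 339 bp in the factor libraries and enters every signal and limit of its library. Lowest called signals came from peaks whose background was within 20% of that at the region, with at least 10 such peaks; where no factor peak was called in a line, the background came from the H3K4me3 peak. Regions called in all 6 libraries of an antibody were compared by exact permutation on log2 summit signal; the test at SLC7A11 is not read, because the limit in MAFG cells lay above every GFP-cell value. The recovery and the counts were tested on simulated data. Calculations used Python 3.11.15, numpy 2.4.6, pandas 2.3.3 and scipy 1.17.1. No pair of replicates shared more than 0.284% of its peak intervals, so none was a repeat deposit.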

Additional observations from a re-analysis of the deposited data

How the results depend on the processing

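Taking the 1836 best peaks of every library left 0 genes with an anti-MAFG peak in GFP cells (6 with all peaks), 2 with anti-MITF in GFP cells (6) and 0 with overlapping factors for GFP cells (4). By construction fewer peaks enter, and the MAFG-cell counts were the same. Requiring 3 of 3 libraries gave 3 genes with anti-MAFG in GFP cells. Anti-MITF in MAFG cells rose from 1 gene to 2, with GSR added, when 1 of 3 libraries sufficed or the flanks were 25 kb. Leaving out 1 library gave 3 to 5 genes for anti-MAFG in GFP cells and 2 to 4 for overlapping factors in GFP cells, with the lowest values without GFP-cell anti-MAFG replicate 2. For anti-MAFG in MAFG cells it gave 2 to 3 genes, and GCLM was lost without replicate 1 or 2. That count was also 2, without GCLM, at −log10 q of at least 5 or in 3 of 3 libraries. With the gene body alone it was 2, without GCLC. H3K4me3 counts stayed at 7 in all settings. Leaving out peaks nearer to another coding gene, chosen after seeing the data, removed GCLM from the GFP-cell anti-MAFG genes (5 left) and no other gene.

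The log2 summit difference ranged from 0.813 to 1.06 at SLC7A11 and from -0.0330 to 0.241 at SLC3A2 when single libraries were left out, the reversal being without MAFG-cell anti-MITF replicate 1. Percentiles of the fold enrichment within a list reversed both, to -55.2 and -36.1 percentage points; lists of unequal length enter that measure, and the cause was not tested. Under a replicate block they were 0.89 and 0.11 (at SLC3A2, exact sign-flip p = 0.5); the numbers are only shared between groups and are not stated to pair the libraries. No p under 0.1 was possible, so the tests say nothing about stability. Nor do the summit differences at SLC7A11, because the MAFG-cell limit there lay above every GFP-cell value. MAFG-cell lists start at a higher signal than GFP-cell lists, at depths of the same range. The scales solved to turn fragments into pileup differed. They were 0.452 to 0.637 in the factor libraries of MAFG cells and 0.969 to 1 in those of GFP cells. The summit signal does not include this scale. Whether the scales account for the higher start was not tested, nor was any other cause.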
